A study of Mus musculus with 211 samples.

Results

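Mature neutrophil-like cells with *Il1b* or *Cxcr2* were 97 of the 211 cells measured. They were chosen from their own read counts. A cell needed at least 50000 reads on genes and fewer than 3 of the precursor genes *Elane*, *Mpo*, *Prtn3*, *Ctsg*, *Ms4a3*, *Fcnb* and *Myb* at 10 or more reads. Of the 164 cells with that depth, 113 met the second condition, and the 97 members were those with at least 10 reads in *Il1b* or *Cxcr2*. The remaining 16 cells are called low cells here, the 51 cells with 3 or more precursor genes precursor cells, and 47 cells were too shallow to classify. Because the counts of these 9 genes chose the members, their levels in the classes are a description and were not tested.

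The cells came from mice of the CD1 strain that carried the Lfng-EGFP transgene, a bacterial artificial chromosome in which *Lfng* sequences drive the green fluorescent protein, aged P60 or P120 (60 or 120 days). Both ages carried the transgene, and mice of either sex were used. Cochleae were dissociated, viable GFP-positive single cells were sorted and captured on Fluidigm C1 chips, and the chip capture, which pooled several mice (4 per experiment in the study's methods, whereas the labels give 4 to 5 cochleae per capture), is the replicate. The submitters labelled all 211 cells as adult cochlear supporting cells, taken in 8 captures of the younger and 4 of the older age. A capture is not an animal. P-values between the ages rest on the spread between pools of animals. Those between classes of the same capture rest on how their difference varies from capture to capture.

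Neutrophils are made in the bone marrow. Their precursors divide and fill primary granules with proteases such as *Elane*, then secondary (specific) granules with proteins such as *Ngp*, *Camp* and *Ltf*, and last the gelatinase granules and the receptors with which a mature cell finds inflamed tissue. *Il1b* encodes interleukin 1 beta, a cytokine that is made as an inactive precursor and released after cleavage by an inflammasome. *Cxcr2* encodes the receptor for chemokines of the CXCL1 and CXCL2 kind, which draws mature neutrophils out of the marrow.

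The promoters of the genes that define the class are shown, from RefSeq on GRCm38.p6, because membership rests on transcripts of these genes. Each window runs 5′ to 3′ along the gene's strand, from 250 bases before the start of the transcript to 50 after it. The *Il1b* window is chr2:129371090-129371389 on the minus strand, and that of *Cxcr2* is chr1:74153744-74154043 on the plus strand. Capitals mark the matches found.

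Il1b: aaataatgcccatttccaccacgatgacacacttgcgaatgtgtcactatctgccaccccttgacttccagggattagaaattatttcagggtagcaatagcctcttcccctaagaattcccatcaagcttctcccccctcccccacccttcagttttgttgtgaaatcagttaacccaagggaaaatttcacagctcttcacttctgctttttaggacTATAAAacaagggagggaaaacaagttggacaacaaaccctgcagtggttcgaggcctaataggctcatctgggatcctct
Cxcr2: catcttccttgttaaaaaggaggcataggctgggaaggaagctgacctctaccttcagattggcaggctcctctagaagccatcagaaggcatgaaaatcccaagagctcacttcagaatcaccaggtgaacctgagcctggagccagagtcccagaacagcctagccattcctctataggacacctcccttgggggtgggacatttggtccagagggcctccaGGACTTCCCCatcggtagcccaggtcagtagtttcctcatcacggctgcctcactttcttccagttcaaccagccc

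5 motifs were searched on both strands. The TATA box, as TATAAA, matched the *Il1b* window at base 220, 31 bases before the start, and 13.6% of the 32851 promoters of this length hold it. The NF-kB motif, as GGG and CC with 5 bases of any kind between them, matched the *Cxcr2* window on its minus strand at base 225, 26 bases before the start, and 50.8% of promoters hold it. The C/EBP motif TTGCNNAA (10.8% of promoters), the AP-1 motif TGANTCA (7.81%) and the PU.1 motif GAGGAAGT (3.20%) had no match in either window.

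In GRCm38, *Il1b* (ENSMUSG00000027398.13) lies on chromosome 2 from 129364570 to 129371139 on the minus strand, and *Cxcr2* (ENSMUSG00000026180.8) on chromosome 1 from 74153989 to 74161246. Of the 97 members, 83 had at least 10 reads of *Il1b* (85.6%) and 70 of *Cxcr2* (72.2%). Both genes passed in 56 members, *Il1b* alone in 27 and *Cxcr2* alone in 14. In single members *Il1b* ranged from 0 to 38797 CPM (reads per 1000000 reads on genes), with a median of 3295 CPM or 1678 reads. *Cxcr2* ranged from 0 to 13429 CPM, with a median of 74.8 CPM or 55 reads, and 12 members had no read of it. Scaled by transcript length, as RPKM (CPM per kilobase of exon), the mean over members was 4128 for *Il1b* and 257 for *Cxcr2*.

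Few cells lay near the minimum of 10 reads in *Il1b* or *Cxcr2*, but more lay next to the cut on precursor genes. The higher gene of the pair had between 10 and 19 reads in 3 members, and in the low cells its highest value was 7 reads, with 4 of the 16 at 0 reads in both. No precursor gene reached 10 reads in 82 members, 1 did in 6 members and 2 did in 9, while 12 precursor cells had exactly 3. Among the 51 precursor cells, 20 also had 10 reads of *Il1b* or *Cxcr2*. A minimum of 5 reads gave 99 members and one of 20 reads gave 94. Thinning each cell to 50000 reads before the choice gave 85 members, of which 79 were among the 97.

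**Figure D1:**
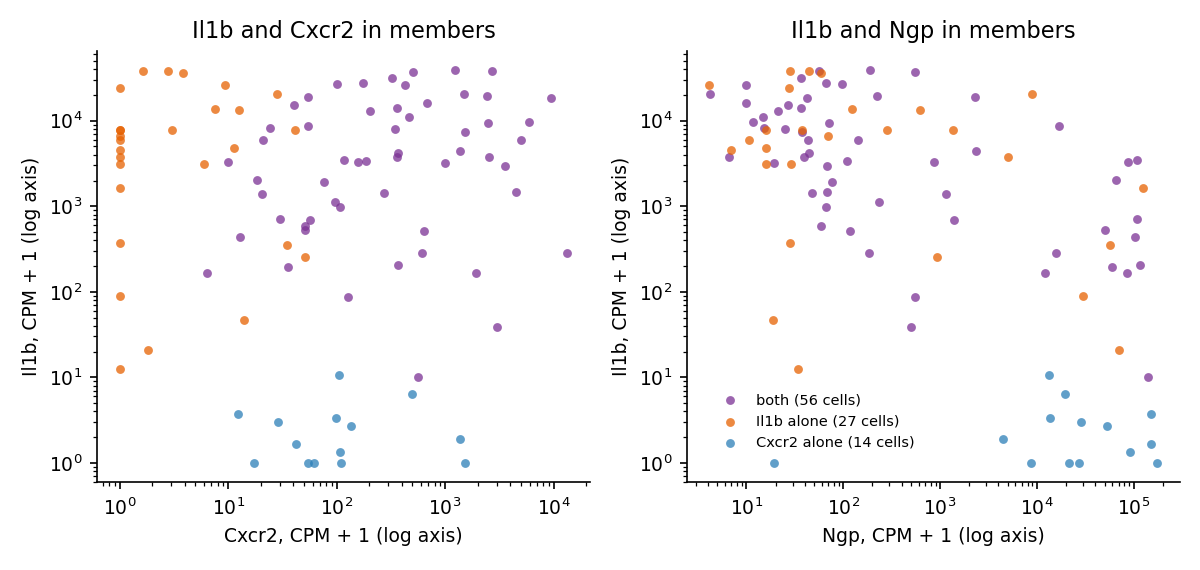
Level of *Il1b* against *Cxcr2* (left) and against *Ngp* (right) in the 97 members, in CPM plus 1 on log axes. Each point is 1 cell, coloured by whether both genes or 1 alone reached 10 reads. Cells with *Il1b* spread over the whole range of *Cxcr2*, while the 14 cells with *Cxcr2* alone lie mostly at high *Ngp*.

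Members were found in 11 of the 12 captures. At P120 they were 10 of 31 deep cells in capture 28, 11 of 21 in capture 32, 11 of 11 in capture 36 and 16 of 21 in capture 38. At P60 they were 8 of 18 in capture 9c, 7 of 7 in 19c, 7 of 7 in 20c, 3 of 5 in 21c, 14 of 18 in capture 31 and 9 of 22 in capture 40, and captures 10c and 17c had fewer than 3 deep cells. Captures of both ages thus lay between a minority of members and members only. The share was 65.2% ± 29.3 at P120 (SD, n = 4 captures) and 70.5% ± 26.3 at P60 (SD, n = 6 captures). The difference of -5.31 percentage points was within that spread (exact two-sided permutation test, p = 0.738, adjusted p = 0.738 over 4 tests). Without capture 28 it was 5.67 points, and among the captures of sequencing lanes 2 and 3 it was 5.86 points, so its sign rests on single captures. Lanes are numbered as in the study's supplement. The deposit gives sequencing runs, of which 1 was taken as lane 1 and the others as lanes 2 and 3. All captures of lane 1 were P60, so lane 1 has no age comparison of its own. Counted over cells, members were 61.2% of 80 deep cells at P60 (exact Clopper-Pearson 95% interval 49.7% to 71.9%) and 57.1% of 84 at P120 (45.9% to 67.9%), intervals that cover counting error only.

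**Figure D2:**
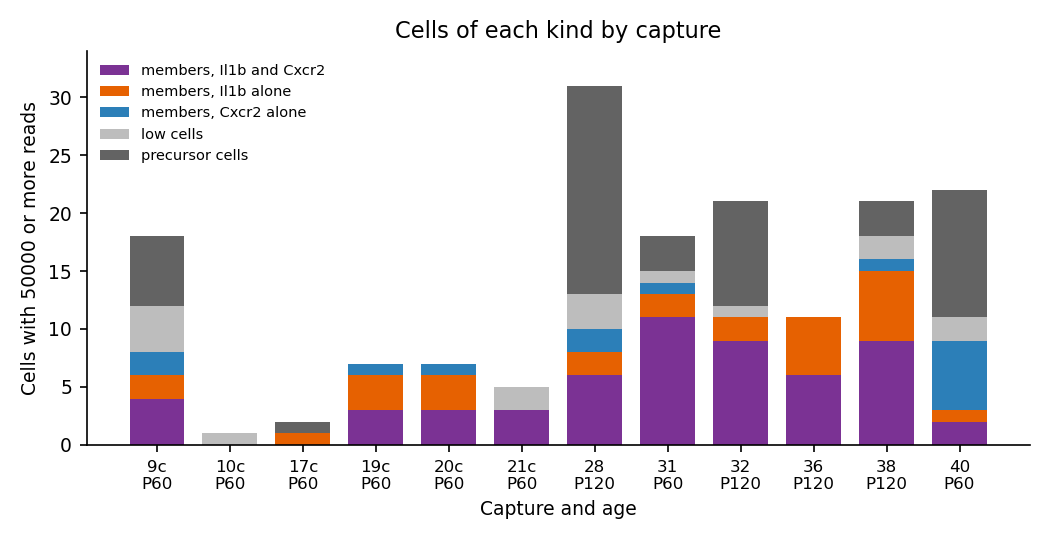
Number of cells with 50000 or more reads in each of the 12 captures, stacked by class (members in 3 colours by which of *Il1b* and *Cxcr2* reached 10 reads, low cells and precursor cells), with the age under each capture. Captures 19c, 20c and 36 hold members only, while captures 28 and 40 hold more precursor cells (18 and 11) than members (10 and 9).

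The cell type in the label was checked against general leukocyte genes and genes of other cell types, which do not bear on maturity. In traits of maturity the members varied. At least 3 of 16 cell cycle genes had 10 reads in 12 of 97 members, and 28 of 97 held *Ngp* at 10000 CPM or more. At least 3 of 10 general leukocyte genes reached 10 reads in 96 of 97 members (99%). At least 3 of 15 supporting cell genes did so in 1 member (1.03%, exact 95% interval 0.0261% to 5.61%), although the cells were labelled as supporting cells. *Lfng*, the gene whose sequences drive the reporter, had 10 reads in 49 of 97 members and in 29 of 51 precursor cells. *Sox2*, a transcription factor of supporting cells, had 10 reads in 0 of 97 members. Summed over the supporting cell list, the capture sums of members ranged from 31.1 to 3424 CPM with a median of 67.6 CPM. Monocyte and macrophage genes passed in 2 members and B cell genes in 1. Hair cell, endothelial, basophil and mast cell, eosinophil, T and NK cell, erythroid, fibroblast and glial genes passed in 0 of 97 members, so that the exact interval reaches a share of 3.73%.

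Members held 74846 to 5361476 reads on genes, with a median of 850832. Precursor cells had a median of 1810799 reads and low cells 639527. The mitochondrial share of reads had a median of 0.534% in members, 1.05% in low cells and 2.21% in precursor cells. In capture 9c, the capture with spike-in RNA read here, members gave a median of 0.130 gene reads per spike-in read (range 0.0394 to 0.584, 8 cells), against 0.316 in 4 low cells and 1.99 in 6 precursor cells (1.54 to 2.24). The ranges of members and precursor cells did not overlap. Beyond the thinning to 50000 reads per cell given with the results, the part of depth and RNA content in the class differences was not tested.

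A few transcripts took much of each member's reads. Over members, *Actb*, the cytoskeletal actin, averaged 6.57% of reads, *S100a9* 6.39%, *S100a8* 4.49%, *Ngp* 2.11% and *Retnlg* 1.44%, and *Il1b* ranked 11th at 0.787%. S100a8 and S100a9 form calprotectin, the main cytosolic protein of neutrophils, and both had at least 10 reads in all 97 members. Scaled by transcript length, the mean levels were 122326 RPKM for *S100a9*, 64668 for *S100a8*, 24536 for *Actb*, 24201 for *Retnlg* and 17228 for *Ngp*.

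The other marker genes of the class were *Csf3r*, the receptor for the growth factor G-CSF, *Retnlg*, a resistin-like secreted protein of late neutrophils, and *Mmp8*, the neutrophil collagenase. *Csf3r* reached 10 reads in 88 members, 6 of 16 low cells and 34 of 51 precursor cells. *Retnlg* did so in 92, 9 and 30 cells, and *Mmp8* in 65, 5 and 15 cells. After thinning to 50000 reads, *Retnlg* had a read in 95.9% of members, 62.5% of low cells and 41.2% of precursor cells, and *Csf3r* in 89.7%, 56.2% and 60.8%. Mean levels over members were 574 RPKM for *Csf3r* and 853 RPKM for *Mmp8*.

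**Figure D3:**
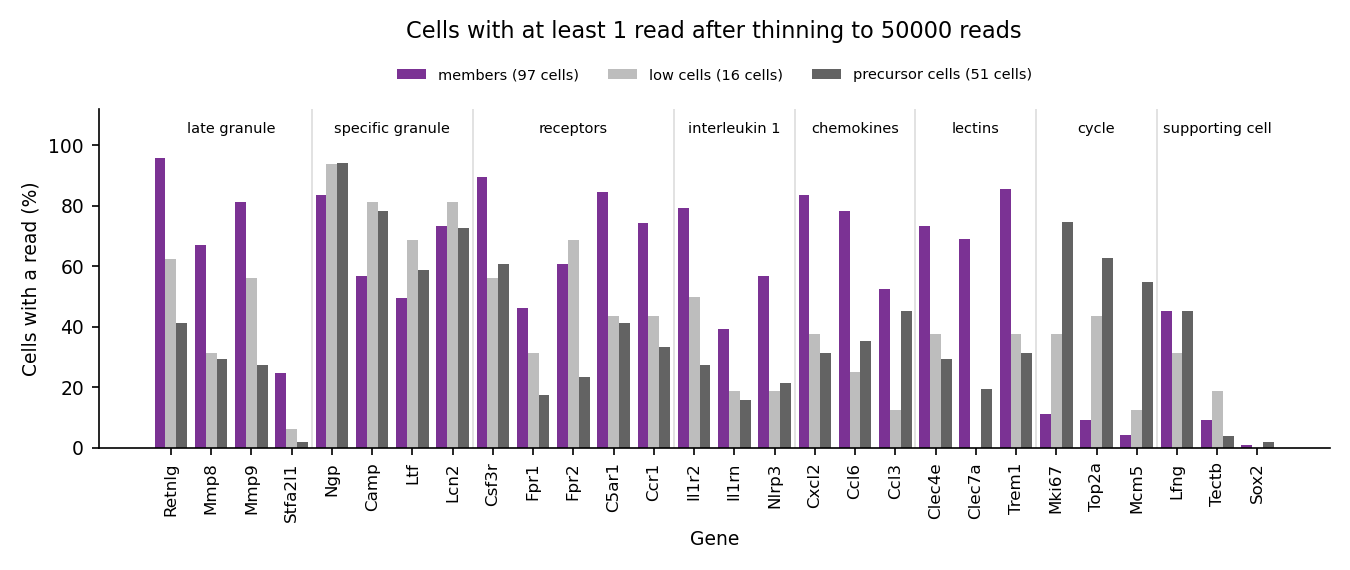
Share of cells with at least 1 read of each gene after every cell was thinned to 50000 reads, for members (97 cells), low cells (16 cells) and precursor cells (51 cells), with the genes grouped by role. Late granule, receptor, chemokine and lectin genes are found in a larger share of members than of the other classes, *Retnlg* in 95.9%, except *Fpr2*, whose share is highest in low cells, while *Mki67* is found in 11.3% of members and 74.5% of precursor cells.

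Members and precursor cells were compared within captures, with counts summed per capture and class in the 6 captures that held at least 3 cells of each (9c, 28, 31, 32, 38 and 40). The quasi-likelihood test of edgeR, with the capture as a block and the rule's genes left out, covered 6496 genes. After Benjamini-Hochberg adjustment at 0.05, 306 genes differed (4.71% of those tested), 113 higher in members (1.74%) and 193 lower (2.97%). The classes were drawn on transcripts of the same cells, so these counts say how regularly genes differed over captures and are no independent evidence of the classes. The precursor cells were a mixed class, in which 17 cells had at least 3 of 8 basophil and mast cell genes at 10 reads. Precursor cells held *Prss34*, a basophil protease, at 46784 CPM in capture 32, but at 0.139 and 0.797 CPM in captures 31 and 40. *Elane* was at 138 CPM in capture 32 and at 6428 and 17494 CPM in captures 31 and 40. How far this mixture shaped the genes called higher or lower was not tested. With each cell thinned to 50000 reads, 111 of 3023 genes were higher and 134 lower. The median log2 fold change of all genes tested was -1.39. Scaled to library totals in place of edgeR's TMM factors, that median was -2.5 and the calls were 63 higher and 618 lower. Without capture 28, 32 or 40 the genes called higher numbered 60, 56 and 53, and those called lower 70, 40 and 42, and without capture 9c the latter numbered 66. Of 58 called genes that the lists or the ranking name, 22 kept the call without each capture in turn, and 0 changed direction under any alternative.

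Of 12 genes of gelatinase granules and of the late cell, 5 rose in members (*Mmp9*, *Mmp8*, *Retnlg*, *Ifitm6* and *Stfa2l1*) and 0 fell, with a median log2 fold change of 4.47. *Retnlg* stood at 17580, 20675, 7453, 3268, 12804 and 18346 CPM in the members of captures 9c, 28, 31, 32, 38 and 40. The precursor cells of the same captures held 1158, 396, 1372, 154, 1137 and 392 CPM, all below the lowest member value. The log2 fold change was 5.32 ± 0.54 (SE; edgeR, adjusted p = 4.09e-06). *Mmp9*, gelatinase B, was at 1545 ± 721 CPM in members and 64.3 ± 38.6 CPM in precursor cells (SD, n = 6 captures; log2 fold change 5.81 ± 0.95, edgeR adjusted p = 0.00145). *Mmp8* was at 2510 ± 1840 and 349 ± 368 CPM (4.51 ± 0.76, edgeR adjusted p = 0.00202), and in capture 32 the members held only 76.8 CPM. *Stfa2l1*, of the stefin A family of cysteine protease inhibitors, was at 159 ± 131 CPM in members and 0.337 ± 0.460 CPM in precursor cells (edgeR adjusted p = 0.00797), and 25 of 97 members and 0 of 51 precursor cells had 10 reads of it. The call of *Ifitm6*, an interferon-induced membrane protein, was lost without capture 9c, 28, 32 or 40 (edgeR adjusted p from 0.0562 to 0.0840) and with thinned cells (0.0554).

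Of 7 secondary granule genes, 1 rose, *Lyz2*, the gene of lysozyme M, at 10902 ± 3699 against 5755 ± 5613 CPM (log2 fold change 2.65 ± 0.52, edgeR adjusted p = 0.0076). In capture 31 *Lyz2* was lower in members (14149 against 14673 CPM). The median of the list was 1.69, and 0.39 with library totals. *Ngp*, neutrophilic granule protein, was at 38328 CPM in members and 45074 in precursor cells as plain means over captures, with a fitted log2 fold change of 1.16 ± 0.66 that did not pass (edgeR adjusted p = 0.286), so its sign differed between plain means and the fit. *Camp* (0.94 ± 0.82), *Ltf* (2.83 ± 1.34) and *Chil3* (0.28 ± 1.0) did not pass either.

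All 4 alarmin S100 genes tested rose, with a list median of 2.59. With library totals the median was 1.42 and 3 of the 4 were called. *S100a9* was at 60121 CPM in members and 29101 in precursor cells (log2 fold change 2.28 ± 0.29, edgeR adjusted p = 5.68e-05) and *S100a8* at 44017 and 27113 CPM (1.92 ± 0.28, adjusted p = 0.000366). These fitted folds are larger than the ratios of the plain means beside them. *S100a6*, a calcium-binding protein of the same family, was at 973 ± 494 and 87.7 ± 54.4 CPM, higher in members in 6 of 6 captures. *S100a11*, also of the family, lost its call without capture 40 (edgeR adjusted p = 0.0572).

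**Figure D4:**
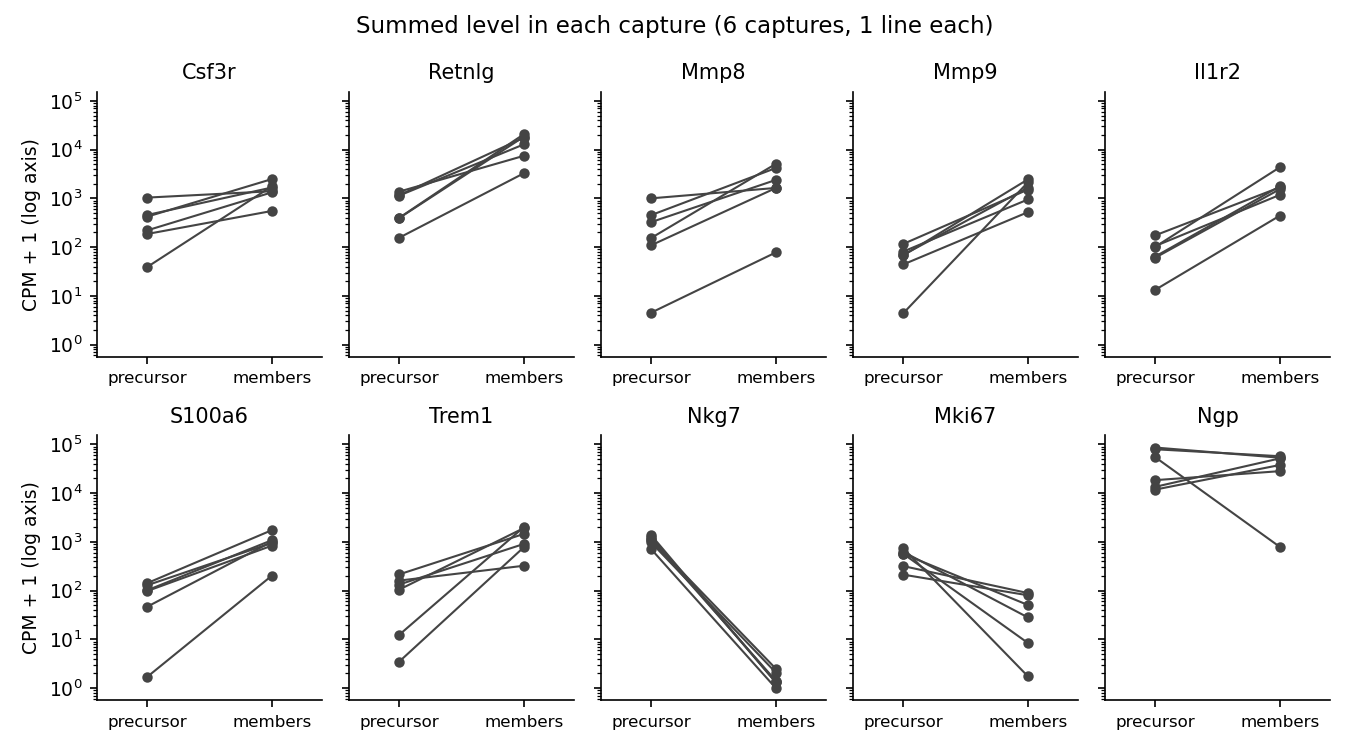
Summed level of 10 genes in precursor cells and members of the same capture, in CPM plus 1 on log axes, with 1 line for each of the 6 captures. *Retnlg*, *Csf3r* and *Mmp9* slope up in every capture, *Nkg7* and *Mki67* slope down in every capture, and *Ngp* slopes up in some captures and down in others.

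Of 12 receptors for chemoattractants and growth factors, 5 rose and 0 fell, with a median of 3.62. *Csf3r* stood at 2482, 1326, 1400, 1768, 1667 and 550.1 CPM in members of captures 9c, 28, 31, 32, 38 and 40, and at 420, 219, 1035, 37.9, 454 and 185 CPM in precursor cells. It was higher in members in every capture (log2 fold change 3.42 ± 0.83, edgeR adjusted p = 0.0213), but the values of the groups overlap. Its adjusted p was 0.0561 with library totals, 0.0578 without capture 28, 0.0574 without capture 32 and 0.0523 without capture 40. The receptors for formyl peptides, which bacteria and mitochondria release, were at 712 ± 549 against 32.7 ± 46.3 CPM for *Fpr1* and 545 ± 320 against 66.5 ± 56.6 CPM for *Fpr2* (SD, n = 6 captures). Without capture 28 neither passed (edgeR adjusted p of 0.0538 and 0.0684), and without capture 40 *Fpr2* did not (0.0616). *C5ar1*, the receptor for complement C5a, was at 1452 ± 588 and 224 ± 162 CPM (4.05 ± 0.85, edgeR adjusted p = 0.0119), and *Ccr1*, a chemokine receptor, at 1463 ± 838 and 224 ± 285 CPM. In capture 28 *Ccr1* was lower in members than in precursor cells (456 against 760 CPM). *Cxcr4*, the receptor that holds neutrophils in the marrow, had a log2 fold change of 1.47 ± 1.14 and did not pass.

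Beyond *Il1b* itself, 10 genes of interleukin 1 signalling and the inflammasome were tested, of which 2 rose and 0 fell (median 2.48). Both act against the cytokine. *Il1r2*, the decoy receptor, stood at 4344, 1684, 1764, 1542, 1178 and 441 CPM in members of captures 9c, 28, 31, 32, 38 and 40, and at 12.3 to 173 CPM in precursor cells, with no overlap (log2 fold change 5.57 ± 0.81, edgeR adjusted p = 0.000345). *Il1rn*, the receptor antagonist, was at 575 ± 527 and 55.6 ± 69 CPM (5.14 ± 1.50, edgeR adjusted p = 0.0483), lower in members in capture 9c. Its adjusted p was 0.0871 with library totals, 0.150 with thinned cells and from 0.0694 to 0.136 without capture 31, 32, 38 or 40. *Nlrp3*, the sensor of an inflammasome that activates interleukin 1 beta, was at 188 ± 162 and 47.8 ± 60.4 CPM and did not pass (edgeR adjusted p = 0.144). *Il1a*, which encodes the other form of interleukin 1, had 10 reads in 1 member.

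Of 15 NF-kB subunits and feedback genes, 1 rose (*Tnfaip2*, induced by tumor necrosis factor, at 1068 ± 603 against 29.9 ± 20.6 CPM, edgeR adjusted p = 0.00712). The list median was 0.66, and -0.35 with library totals. *Nfkbiz*, an inhibitor-like regulator, was at 1145 ± 554 and 582 ± 293 CPM and did not pass (adjusted p = 0.085). Of 7 chemokines and cytokines, *Ccl6* (2256 ± 836 against 366 ± 383 CPM) and *Cxcl2*, a ligand of Cxcr2 (2010 ± 1795 against 511 ± 856 CPM), rose, with edgeR adjusted p of 0.0076 and 0.0178. *Cxcl2* in members was lowest in capture 40 (143 CPM) and highest in capture 20c (8813 CPM), and in capture 28 it was lower in members than in precursor cells (1672 against 2188 CPM). Its call was lost without capture 32 (adjusted p = 0.0541). *Il6* had 10 reads in 0 members and 10 precursor cells.

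Of 15 immediate early genes, which cells transcribe within minutes of a stimulus, 5 rose (*Fos*, *Ier5*, *Dusp1*, *Zfp36* and *Btg2*) with a list median of 2.87. *Fos* was at 3491 ± 2024 and 987 ± 735 CPM (log2 fold change 2.90 ± 0.58, edgeR adjusted p = 0.00797), and *Zfp36*, which destabilises cytokine transcripts, at 2031 ± 448 and 556 ± 310 CPM. *Jun* had a log2 fold change of 0.42 ± 1.45 and did not pass. The calls of *Ier5* (without 9c, 31, 32 or 40), *Dusp1* (without 28, 31 or 40) and *Btg2* (without 9c or 28) were lost in edgeR fits without a capture, with adjusted p from 0.0553 to 0.106. In capture 38 *Btg2* was lower in members (3056 against 3422 CPM). Of 12 Fc, lectin and paired receptors, 6 rose (*Fcer1g*, *Tyrobp*, *Clec4e*, *Clec7a*, *Pirb* and *Trem1*), with a median of 3.56. *Clec4e*, which binds fungal and mycobacterial glycolipids, was at 1216 ± 337 against 95.4 ± 92.9 CPM, with an edgeR adjusted p of 0.00581. *Trem1*, an amplifier of inflammation, was at 1239 ± 680 CPM in members (SD, n = 6 captures; log2 fold change 5.23 ± 1.11, edgeR adjusted p = 0.012). *Fcer1g* lost its call without any 1 of the 6 captures (0.0576 to 0.134), *Clec7a* without 9c, 32 or 40 (0.0671 to 0.0758) and *Pirb* without 32 (0.0615). In capture 28 *Fcer1g* (725 against 963 CPM) and *Clec7a* (32.5 against 143 CPM) were lower in members.

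Smaller lists gave single calls. *Mcl1*, a survival factor that neutrophils depend on, was at 1511 ± 873 and 302 ± 183 CPM (1 of 5 survival and death genes rose; list median 0.36, and -0.76 with library totals). Of 7 genes of lipid mediators, *Ptgs2*, which starts prostaglandin synthesis (589 ± 582 against 69.5 ± 136 CPM), and *Pla2g7*, which degrades platelet-activating factor (603 ± 583 against 81.3 ± 98.2 CPM), rose, and the list median was 0.13, and -1.13 with library totals. Of 9 transcription factors of granulopoiesis, *Klf2* rose (612 ± 407 against 73.9 ± 70.6 CPM, edgeR adjusted p = 0.0285), while *Cebpb* (3.29 ± 1.46) and *Cebpe* (-1.07 ± 2.57) did not pass. Each of these calls was lost in some edgeR fit without a capture, *Mcl1* without 32 (adjusted p = 0.0574), *Ptgs2* without 28, 31, 38 or 40 (0.0631 to 0.0753), *Pla2g7* without 28, 31, 32 or 40 (0.0562 to 0.0883) and *Klf2* without 28, 32 or 40 (0.0551 to 0.0799).

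Of 16 cell cycle genes, 1 passed the test, and 15 had a log2 fold change under 0, with a median of -3.92 (65.4% and -1.39 over all genes tested). At least 3 of the 16 had 10 reads in 12 of 97 members and 47 of 51 precursor cells. The gene that fell was *Mcm5*, of the helicase that opens replication origins, at 2.88 ± 6.06 CPM in members and 324 ± 164 in precursor cells (edgeR adjusted p = 0.0240). *Mki67*, a marker of dividing cells, was at 42.4 ± 36.8 and 517 ± 202 CPM, lower in members in every capture, but did not pass (adjusted p = 0.225). It had 10 reads in 11 of 97 members, 6 of 16 low cells and 38 of 51 precursor cells. *Nkg7*, a granule membrane protein, fell furthest by p, from 1117 ± 250 CPM in precursor cells to 0.608 ± 0.569 in members (edgeR adjusted p = 0.000208), and 1 member and 38 precursor cells had 10 reads. *Mcpt8* and *Prss34*, proteases of basophils, were at 2.27 and 2.77 CPM in members and 6054 and 13306 CPM in precursor cells, and 17 precursor cells had at least 3 of 8 basophil and mast cell genes at 10 reads. The calls of *Mcm5* (without 9c or 28), *Mcpt8* (without 9c, 28, 32 or 38) and *Prss34* (without 9c or 32) were lost with those captures left out, with edgeR adjusted p from 0.0521 to 0.125.

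Ranked by fold among genes of the same direction in every capture, *Dhrs9*, a retinol dehydrogenase, led the genes higher in members at 416 ± 291 against 0.755 ± 1.02 CPM (edgeR adjusted p = 0.000495). It was followed by *Prr5l*, a partner of the mTORC2 complex (131 against 0.166 CPM), *Cass4*, a scaffold of adhesion signalling (189 against 0.786 CPM), *Stfa2l1*, *Gm25703*, *Ppp1r3b*, which targets a phosphatase to glycogen (148 against 2.11 CPM), *Slc15a3*, a lysosomal peptide transporter (2.87 CPM in precursor cells), and *Anxa11os*. Those lower in members were *Rbm15b*, *Rpl10a*, *Mrps11*, *Slc38a1*, *Golt1b*, *Tspoap1*, *A430005L14Rik* and *Chchd3*. *Rbm15b*, a regulator of RNA methylation, was at 0 CPM in members of all 6 captures and 169 ± 283 in precursor cells, and *Rpl10a*, a ribosomal protein, at 3.13 ± 7.64 and 269 ± 94.6 CPM. Of these 16 genes, *Dhrs9*, *Cass4*, *Stfa2l1* and *Anxa11os* kept the call without each capture in turn. Of the 193 genes called lower, 67 had 3 or fewer reads over all members. A gene could pass the filter on low counts through 1 class alone, so folds of this size depend on low counts in the other class. With no filter on low counts, 79 genes were called higher and 25 lower.

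GFP intensity was read as a measure that the choice of members did not use. The number of genes detected comes from the same counts as the choice, which asked for few detected precursor genes. It is therefore no independent measure of the classes. At 50000 reads per cell the members of captures 9c, 28, 31, 32, 38 and 40 averaged 1081, 1186, 1285, 902, 718 and 1070 genes, and the precursor cells 3299, 2387, 3061, 2250, 2280 and 2212. The mean of members was lower in all 6 captures, and the capture means of the groups did not overlap. Single cells did overlap, with 470 to 2123 genes in members and 957 to 4384 in precursor cells over all captures. The difference was -1541 genes (1040 ± 203 against 2581 ± 473, SD, n = 6 captures; exact permutation p = 0.03125, the smallest that 6 pairs allow, adjusted p = 0.125 over 4 tests). Against low cells, in the 2 captures with at least 3 of them, the members had 1133 ± 74.5 genes and the low cells 1404 ± 357, and the exact permutation p of 0.5 is the smallest that this design allows.

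The study imaged the capture sites, but its methods do not say how a GFP score was made. A normalized GFP intensity was deposited with each cell, and its scale is not given in the sources used here. In members of captures 9c, 28, 31, 32, 38 and 40 it averaged 268.5, 549, 376, 665, 449 and 420, and in the other deep cells of those captures 323, 304, 388, 167, 253 and 282. Members were brighter in 4 of 6 captures, all 3 of P120 among them, and dimmer in 9c and 31. The difference of 168 (454.6 ± 138 against 286 ± 74, SD, n = 6 captures) did not pass (exact permutation p = 0.125, adjusted p = 0.25 over 4 tests). Over the 97 members the score had a median of 406 and ranged from 60 to 1000. The highest score, 1000, was shared by 4 members and 2 other deep cells, and if the scale ends there these cells are held down in the means above.

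**Figure D5:**
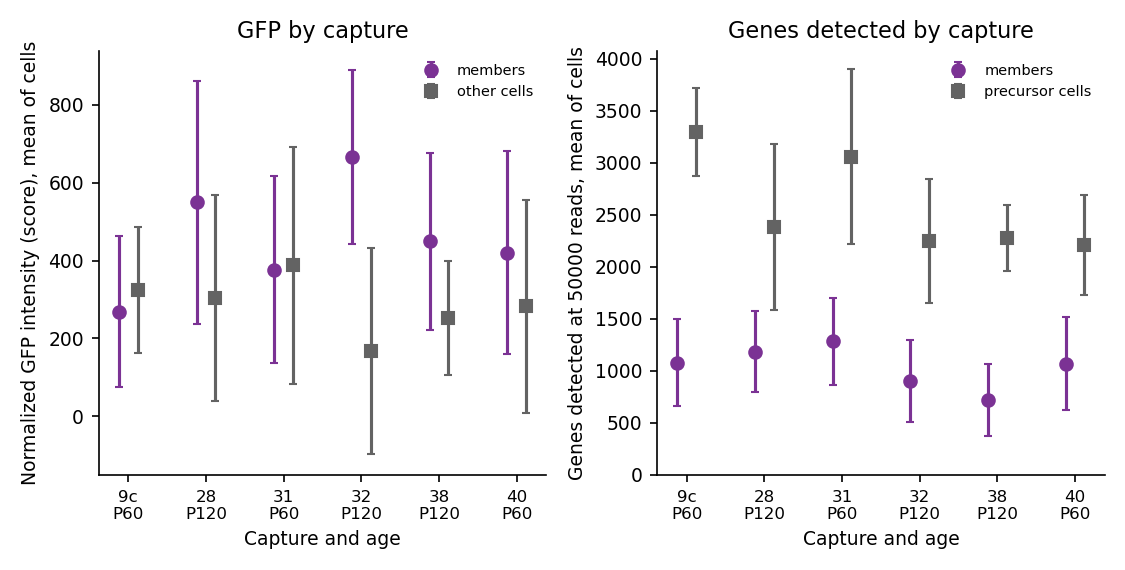
Normalized GFP intensity (left) and genes detected at 50000 reads (right) by capture, as the mean over cells with the SD over cells as the bar, for members against the other deep cells (left) or precursor cells (right). The genes detected in members (means of 718 to 1285) lie below those of precursor cells in every capture, while the GFP bars overlap.

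The low cells were too few for a firm comparison. In captures 9c and 28 edgeR tested 4181 genes and called 0 (0%), with 53 at an unadjusted p under 0.05, while DESeq2 called 280 higher in members and 175 lower. The genes with the smallest p, none of which passed, were *Timp2*, *Selenop*, *Zfp984*, *Asprv1* and *Inpp4a* on the higher side and *Slc16a1*, *Tlk1*, *Cdv3*, *Alkbh4* and *Crispld2* on the lower. In a fit added after seeing the data, over the 7 captures with at least 1 low cell, 0 of 2372 genes were called (0%), with 316 at an unadjusted p under 0.05. There 75.2% of all genes had a log2 fold change above 0, with a median of 1.90, so counts above 0 in a list say little. They were 5 of 5 for interleukin 1 genes, 8 of 8 for NF-kB genes, 6 of 6 for chemokines, 11 of 11 for Fc and lectin receptors, 4 of 4 for S100 genes and 10 of 10 for leukocyte genes. Secondary granule genes had 1 of 7 above 0 (median -0.15) and cell cycle genes 1 of 11 (-2.56). A gene could pass the filter on low counts through the members alone.

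Within the members, the medians per cell of secondary granule transcripts were higher in the cells with *Cxcr2* alone than in those with *Il1b*, an order that did not hold in every capture. These groups were drawn on *Il1b* and *Cxcr2* in the same cells, so the values per cell are a description. At 50000 reads per cell, the median *Ngp* count was 6.5 in cells with both genes, 3 in those with *Il1b* alone and 1213 in those with *Cxcr2* alone. *Camp*, the cathelicidin, had medians of 1, 0 and 602.5 reads, *Ltf*, lactoferrin, 0, 0 and 213, and *Lcn2*, lipocalin 2, 11.5, 6 and 309. *Retnlg* (175, 316 and 761.5) and *Mmp9* (17, 13 and 59.5) also had their highest median in the cells with *Cxcr2* alone, while *Csf3r* had its lowest there (37.5, 78 and 7). By capture, the summed level was higher in the cells with *Cxcr2* alone in 4 of 7 captures for *Camp* and *Lcn2*. The same held in 3 of 7 for *Ltf*, *Retnlg*, *Mmp9* and *Csf3r*, and in 2 of 7 for *Chil3*. In capture 40 *Ngp*, *Camp*, *Ltf*, *Lcn2* and *Chil3* were all higher in the members with *Il1b* (62328 against 56223 CPM for *Ngp* and 15464 against 6729 CPM for *Ltf*). Several induced genes were read in a smaller share of the cells with *Cxcr2* alone. *Ptgs2* had a read in 60.7%, 63% and 0% of the groups and *Stfa2l1* in 32.1%, 22.2% and 0%, where 0 of 14 cells allows a share of up to 23.2%. *Ccl6* had a read in 87.5%, 81.5% and 35.7% and *Cxcl2* in 85.7%, 96.3% and 50%. Of the 14 cells with *Cxcr2* alone, 6 were in capture 40, where the summed *Il1b* of the members was the lowest of all captures (38 CPM).

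The members spanned a wide range of *Ngp*. With a minimum of 10000 CPM, chosen after the values were seen, 28 of 97 members were above, 9 lay between 1000 and 10000 CPM and 60 were under 1000 CPM. The 28 cells came from 8 captures and were 13 of the 56 members with both genes, 4 of the 27 with *Il1b* alone and 11 of the 14 with *Cxcr2* alone. Their median *Il1b* was 127 CPM against 6022 CPM in the other 69, and their median depth 1781970 against 717337 reads. Over the 97 members and 635 genes read in enough cells, the genes ranked most like *Ngp* were *Cybb*, the catalytic subunit of the NADPH oxidase (Spearman's rho = 0.84), *Camp* (0.80), *Ltf* (0.75) and *Lcn2* (0.71). Those most like *Il1b* were *Marcks* (0.56), *Pim1* (0.54) and *Dusp1* (0.52), and those most unlike it *Wfdc21* (-0.60), *Cybb* (-0.58), *Ngp* (-0.57) and *Lcn2* (-0.57). Ranked within captures, the value of *Ngp* with *Il1b* was -0.49, and over the 70 members with more than 500000 reads -0.61. Those most like *Cxcr2* were no higher than 0.39 (*Cd300c2*). The points share captures, differ in depth and were selected on *Il1b* and *Cxcr2*, so these values describe the cells and were not tested.

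Over captures, the 83 members with *Il1b* were set against the 14 with *Cxcr2* alone in the 7 captures that held both, mostly with 1 or 2 cells of the latter. This fit was added after seeing the data, since only capture 40 held 3 of each. Of 1706 genes, edgeR called 0 (0%), with 253 at an unadjusted p under 0.05, while DESeq2 called 451 higher and 21 lower in members with *Il1b*. *Ptgs2* ranged from 93.3 CPM in capture 9c to 1916 CPM in capture 38 in the members with *Il1b*, and stood at no more than 1.37 CPM in those with *Cxcr2* alone (edgeR adjusted p = 0.102). *Stfa2l1* was likewise higher in 7 of 7 captures (496 against 0.177 CPM, edgeR adjusted p = 0.102). *Ngp* was higher in the cells with *Cxcr2* alone in 5 of 7 captures (66472 against 29204 CPM, log2 fold change of the members with *Il1b* -1.80 ± 0.53, edgeR adjusted p = 0.116). Without capture 40, 11 genes were called higher and 1 lower, and without capture 28, 1 and 1. Of all genes tested, 83.2% had a log2 fold change above 0, with a median of 2.5, and a gene could pass the filter on low counts through the members with *Il1b* alone. Counts above 0 were 4 of 4 for interleukin 1 genes, 8 of 8 for NF-kB genes, 14 of 14 for immediate early genes, 10 of 10 for receptors and 11 of 11 for Fc and lectin receptors, against 2 of 7 for secondary granule genes (median -0.58).

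The members of the ages were compared over 4 captures at P120 and the 6 captures at P60 with at least 3 members. Of 4451 genes, edgeR called 0 (0%), with 218 at an unadjusted p under 0.05, and DESeq2 called 19 higher and 49 lower at P120. *Il1b* was at 386, 9683, 6862 and 7772 CPM at P120 and from 38 to 11860 CPM at P60, and *Cxcr2* at 597, 681, 80.3 and 924 CPM and from 51.7 to 1233 CPM. The ages overlapped widely in both. Since both genes chose the members, their levels by age are a description. The log2 fold change of P120 over P60 was -0.41 ± 0.85 for *Csf3r*, 0.33 ± 0.57 for *Retnlg* and 0.88 ± 0.93 for *Mmp8*, all with edgeR adjusted p of 0.998 or higher. *Mmp8* was at 4186, 76.8, 5615 and 2387 CPM at P120, a range as wide as that of P60 (196 to 5094 CPM). With this number of captures, changes of these markers much larger than these errors could also go undetected. In the same fit *Vta1*, at a log2 fold change of 11.3 ± 2.83, did not pass (edgeR adjusted p = 0.575).

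Of all genes tested by age, 53.5% had a log2 fold change above 0, with a median of 0.15. By list, all 7 secondary granule genes were above 0, but with a median of 0.19, close to that of all genes. All 4 S100 genes were under 0 with a median of -0.32. All 11 cell cycle genes tested were above 0 with a median of 1.90, and none passed. The genes with the smallest p were *Vta1*, *Cbfb*, *Atp13a3*, *Ubn2* and *Gpr35* on the P120 side and *Fcrl1*, *Sike1*, *Ighm*, *Igkc* and *Stx4a* on the P60 side, and none passed (edgeR adjusted p of 0.575 for *Vta1* and *Fcrl1*). *Ighm*, the immunoglobulin heavy chain of B cells, was at 364 ± 357 CPM at P60 (range 0.526 to 825) and 0.587 ± 1.08 at P120, and 1 member in all had 3 B cell genes at 10 reads.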

How the data were processed

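The authors deposited 1 table of read counts per gene for all cells and, for each cell, the age, the capture, the sequencing run and a normalized GFP intensity (a score). Per the labels, reads were aligned to mm10 with STAR, which the study's methods also name for the counts. From these counts, 92 spike-in rows were dropped and 48349 of 48709 gene identifiers were given symbols. Cells that the authors excluded before deposit were not analysed here, and no doublet caller was applied.

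The members, gene lists and tests were chosen with earlier results of these data known. Replicates are captures, with at least 3 cells of a class each. Raw counts were summed per capture and class, without the rule's 9 genes where classes were compared, and tested with edgeR 4.0.16 (R 4.3.3; filterByExpr, TMM, quasi-likelihood F test, the capture as a block within captures, Benjamini-Hochberg at 0.05). Standard errors were taken from the fold change and F. DESeq2 1.42.0, no filter, thinned cells, other read minimums, library totals and each capture left out were alternatives. Shares, GFP and genes detected were compared by exact two-sided permutation over captures (SciPy 1.17.1). Scripts were tested on simulated data. Results of some listed genes are not reported here. Named genes were the rule's and class markers, genes of the lists, the 8 with the largest fold past 0.05 in the same direction in every capture (or, where fewer than 3 passed, the 5 with the smallest p) and the 20 with the largest share of reads. The comparison within members needed fewer cells per capture than planned. Promoters came from RefSeq on GRCm38.p6, and gene positions from the GRCm38 annotation. Depth per member ranged from 74846 to 5361476 reads, and intervals cover counting error only.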

Additional observations from a re-analysis of the deposited data

Results flagged for a closer look

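In members of the P60 captures, *Mmp8* stood at 5094 CPM in capture 40, apart from the other 5 captures (196 to 1635 CPM) by Dixon's criterion. The criterion was applied to 14 groups of captures, and chance marks about 1 in 20. Capture 40 also held 6 of the 14 members with *Cxcr2* alone. Without capture 40 the P120 against P60 comparison of members still called 0 genes in edgeR, with 190 at an unadjusted p under 0.05. The cause was not tested.

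The 47 cells under 50000 reads took no part in the comparisons. Of these, 40 had at least 1 read of *Il1b* or *Cxcr2* and 18 had at least 10 reads, while *S100a8* was read in all 47 and *Elane* in 24.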

How the results depend on the processing

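With DESeq2, genes called higher and lower were 746 and 2486 for members against precursor cells, where all 113 and all 193 edgeR calls were also called, 280 and 175 against low cells, 19 and 49 for P120 against P60, and 451 and 21 for members with *Il1b* against those with *Cxcr2* alone. With no filter on low counts, 25 genes were lower than in precursor cells, and 8 and 7 differed by age. Members chosen from thinned counts gave 8 and 1 calls against low cells and 1 and 1 by age. Cells thinned to 50000 reads gave 1 gene higher at P120, as did members with no precursor gene at 10 reads, for which 849 genes were lower than in precursor cells. Library totals gave 63 and 618 calls against precursor cells. The last 2 settings and the comparison of genes detected with precursor cells were added after seeing the data. So was a comparison of GFP intensity with precursor cells, which is not reported here. That of GFP intensity with the other deep cells was planned. A minimum of 20 reads gave 11 genes higher with *Il1b*. Leaving out 1 capture at a time gave 53 to 97 genes higher and 40 to 228 lower than in precursor cells, and 0 to 11 higher and 0 to 1 lower with *Il1b*.

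The difference of the member share by age was -16.9 to 5.67 percentage points without 1 capture at a time, 0.581 without 19c or 20c, 5.67 without capture 28 and 5.86 in lanes 2 and 3. Genes detected against precursor cells differed by -1621 to -1406 without 1 capture at a time, each at an exact permutation p of 0.0625, the smallest that 5 captures allow.

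Classes of the same capture share its animals and chip. Without the capture as a replicate block, 132 genes were higher and 175 lower than in precursor cells, 12 of the 58 named calls were lost, and the other comparisons within captures still called 0 genes. The ages share no captures, so no block could be fitted there. Without 1 of its 2 captures the comparison with low cells could not be fitted, and that within members was not possible as planned, since 1 capture held 3 cells of each. The few cells per capture limit what the zero counts can show.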

Other observations

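Sex-linked transcripts were uneven among members. At 10 reads, 30 members had a Y-linked gene alone, 1 had *Xist* alone, 1 had both and 65 had neither, although mice of either sex were used. The capture sums of *Xist* had a median of 0.382 CPM in members (highest 12.7) and 257 CPM in precursor cells (highest 525). These counts therefore do not give the share of each sex among members. *Cd3d*, a T cell receptor subunit, had 10 reads in 22 of 97 members, 7 of 16 low cells and 8 of 51 precursor cells, while 0 members had 3 of 8 T and NK cell genes at 10 reads.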
